A study of Homo sapiens with 6 samples.

Results

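The genes of the NCOR corepressor complex are described here by the peaks of 2 SWI/SNF subunits around them. The 5 genes are NCOR1, HDAC3, TBL1X, TBL1XR1 and GPS2, of 20037 protein-coding genes placed on the assembly. A peak belonged to a gene when its summit lay within the RefSeq GRCh38 gene span extended by 100 kb on each side. In the outermost 10 kb inside this edge lay 4, 3, 3 and 2 peaks (LNCaP BRG1, LNCaP SMARCC2, MR49F BRG1, MR49F SMARCC2), and in the 10 kb just outside it 0, 0, 1 and 1, with the highest −log10 q-value 33.8 inside and 12.8 outside, both at TBL1XR1 in MR49F BRG1. By this rule the genes held 78 of 36174 peaks for LNCaP BRG1, 58 of 25706 for LNCaP SMARCC2, 72 of 44308 for MR49F BRG1 and 69 of 47615 for MR49F SMARCC2. The genes were chosen by their peak counts in these same lists, so those counts are given as a description and are not tested. Joined over the lists, these peaks formed 110 of 65483 regions.

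SWI/SNF occupancy was measured by ChIP-seq with antibodies against BRG1, the ATPase of the complex, and SMARCC2, one of its scaffold subunits. LNCaP, a human prostate cancer line sensitive to the antiandrogen enzalutamide, was grown in serum-containing medium, with no drug given in the labels. MR49F, an enzalutamide-resistant derivative of LNCaP, was grown in the same medium with 10 µM enzalutamide, so line and drug cannot be told apart. All cells were fixed with 2 mM disuccinimidyl glutarate for 45 min and then 1% formaldehyde for 10 min, and each group was 1 library, so the values below carry no replicate error and no test between lines was made.

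NCOR1 is the scaffold of a corepressor that nuclear receptors recruit when unliganded or bound by an antagonist. The scaffold holds and activates HDAC3, the histone deacetylase of the complex. TBL1X and TBL1XR1 are close paralogs with WD40 repeats that bind histones and take part in the exchange of corepressors for coactivators, and GPS2 is a small subunit that joins them to the scaffold.

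The MR49F lists were longer, with 1.22 times as many BRG1 and 1.85 times as many SMARCC2 peaks as in LNCaP, and the lists do not give sequencing depth. Each of the 9 luminal prostate genes used as markers had peaks in every list, 129, 95, 138 and 139 in all (LNCaP BRG1, LNCaP SMARCC2, MR49F BRG1, MR49F SMARCC2). KLK3, the gene of prostate-specific antigen, had 18 BRG1 peaks in each line. Summed over 4 leukocyte genes there were 21, 13, 18 and 13 peaks, over 4 fibroblast genes 9, 5, 8 and 9, and over 3 hepatocyte genes 6, 7, 13 and 15, in the same order. DCN, a fibroblast gene, had 0 peaks in all lists, and PTPRC, a leukocyte gene, had 0 in LNCaP and 1 with each antibody in MR49F. A peak is no measure of expression, and neighbouring genes share windows.

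Sequence upstream of the annotated starts is shown first, because the bases before these starts had peaks in different lists and with different antibodies. RefSeq sequences (GRCh38.p14) matched all 5 genes, with 8 starts in all. The lines give the 250 bases before a start, 5′ to 3′ on the strand of the gene. For HDAC3 only 147 bases are given, since the divergent gene RELL2 starts 148 bp upstream. Capitals mark matches, on either strand, to GGGCGG (GC box), CCGGAAG (ETS core), CACGTG (E-box) and TGANTCA (AP-1 site).
TBL1XR1, second start: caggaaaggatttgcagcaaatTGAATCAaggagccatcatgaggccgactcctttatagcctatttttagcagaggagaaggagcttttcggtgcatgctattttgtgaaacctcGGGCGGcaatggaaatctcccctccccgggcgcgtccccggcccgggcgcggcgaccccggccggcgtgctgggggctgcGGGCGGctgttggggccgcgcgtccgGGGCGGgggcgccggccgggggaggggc
TBL1X, first start: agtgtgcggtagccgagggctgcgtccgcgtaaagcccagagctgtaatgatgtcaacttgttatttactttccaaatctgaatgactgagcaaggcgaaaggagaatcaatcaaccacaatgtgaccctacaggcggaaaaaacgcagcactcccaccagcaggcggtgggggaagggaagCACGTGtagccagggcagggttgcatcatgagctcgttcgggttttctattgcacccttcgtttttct
TBL1X, second start: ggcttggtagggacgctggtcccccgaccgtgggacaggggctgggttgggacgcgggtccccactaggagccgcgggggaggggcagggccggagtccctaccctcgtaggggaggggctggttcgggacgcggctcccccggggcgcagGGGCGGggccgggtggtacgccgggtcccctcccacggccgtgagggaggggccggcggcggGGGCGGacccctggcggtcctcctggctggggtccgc
NCOR1, first start: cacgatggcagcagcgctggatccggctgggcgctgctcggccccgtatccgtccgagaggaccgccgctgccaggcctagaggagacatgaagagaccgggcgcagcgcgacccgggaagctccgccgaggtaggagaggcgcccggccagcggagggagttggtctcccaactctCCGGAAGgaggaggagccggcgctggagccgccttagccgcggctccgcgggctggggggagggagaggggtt
HDAC3: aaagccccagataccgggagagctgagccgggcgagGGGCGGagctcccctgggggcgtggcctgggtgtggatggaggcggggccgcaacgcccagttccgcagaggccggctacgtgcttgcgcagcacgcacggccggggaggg
GPS2: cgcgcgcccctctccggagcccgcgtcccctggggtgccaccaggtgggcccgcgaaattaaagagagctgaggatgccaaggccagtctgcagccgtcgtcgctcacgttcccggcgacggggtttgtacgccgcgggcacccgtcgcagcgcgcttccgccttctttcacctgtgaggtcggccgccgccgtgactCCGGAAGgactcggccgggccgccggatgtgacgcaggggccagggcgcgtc

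TBL1XR1 has 2 starts in this table, and its second lies at chr3:177196479-177196728 (minus strand), where BRG1 of both lines and MR49F SMARCC2 had a peak over the printed bases. There 3 GC boxes and an AP-1 match were found. The window of the first TBL1XR1 start, not printed, held 4 GC boxes and overlapped peaks of LNCaP BRG1 and MR49F SMARCC2 only. GGGCGG was found in 53.7% and TGANTCA in 5.36% of the 250-base windows of 22199 protein-coding starts. TBL1X starts are at chrX:9463045-9463294 and chrX:9464808-9465057 (plus strand). One E-box stood before the first, a motif found in 7.37% of windows, and 2 GC boxes before the second. NCOR1 (chr17:16215535-16215784, minus strand) and GPS2 (chr17:7315361-7315610, minus strand) each held 1 ETS core, which 10.7% of windows held. The window of the second NCOR1 start, not printed, held none of the motifs and overlapped no peak of any list. HDAC3 (chr5:141636850-141636996, minus strand) held 1 GC box. The CCAAT box (CCAAT), the cyclic AMP response element (TGACGTCA), the YY1 core (AAGATGGC), the forkhead site (TGTTTAC) and a part of the NRF1 site (GCGCATGC) were also searched on both strands. None of these 5 matched before any of the 8 starts, which says only that these letters are not in the windows. They were found in 32.7%, 2.01%, 1.38%, 2.45% and 3.26% of all windows. The androgen receptor half-site (AGAACA), found in 9.84% of windows, was searched as well and matched before none of the 8 starts. A match is a description of letters and not a site.

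The start windows were called unevenly. Over all starts, 21.6% of the 250-base windows had a LNCaP BRG1 peak, 10.4% a LNCaP SMARCC2 peak, 32.4% a MR49F BRG1 peak and 26.8% a MR49F SMARCC2 peak. None of the 8 windows of the 5 genes overlapped a LNCaP SMARCC2 peak. With 10.4% over all starts, this is no particular trait of these genes. Joined over the lists, the start regions of TBL1XR1, NCOR1 and HDAC3 were each called in all 4 lists. At TBL1XR1 a LNCaP SMARCC2 peak with a −log10 q-value of 2.1 lay between its windows, with the summit 244 bp inside the first start. At NCOR1 the printed bases were covered in MR49F alone, with −log10 q-values of 12.5 (BRG1) and 13.8 (SMARCC2), and the LNCaP peaks of the start region ended inside the gene. These q-values, like the folds below, are the ones the authors' peak caller gave. Values of different lists are set side by side only to describe a region and show no change between them. At HDAC3 the printed bases were also covered in MR49F alone, with 12.6 and 14.2. There LNCaP peaks of 8.43 (BRG1) and 17.7 (SMARCC2) began beyond the printed bases on the RELL2 side. The LNCaP BRG1 peak did overlap the full 250-base window of HDAC3, the length used for the shares over all starts. At the second TBL1XR1 start the value was 51.1 for LNCaP BRG1, 29.7 for MR49F BRG1 and 16.8 for MR49F SMARCC2. The first TBL1X start had 8.35 for LNCaP BRG1, with a summit 93 bp before it, and the second had another LNCaP BRG1 peak of 3.58. MR49F BRG1 and SMARCC2 covered both TBL1X starts in 1 peak each (21.1 and 25.8), with summits 507 bp before and 720 bp after the second start. The nearest LNCaP SMARCC2 summit lay 142194 bp from the first TBL1X start, outside the window in which peaks were counted. GPS2 was covered over its printed bases by BRG1, with 4.67 in LNCaP and 5.5 in MR49F, and the MR49F SMARCC2 summit lay 356 bp inside the gene.

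Among the 5 genes, TBL1XR1 had more peaks in LNCaP and GPS2 more in MR49F by at least 1.5 times with both antibodies, and NCOR1, HDAC3 and TBL1X passed that fold with both antibodies in neither direction. Fold is the ratio of peak counts plus 1. Of 18547 genes with a peak of each antibody, 29.5% were higher in MR49F and 1.20% higher in LNCaP. With BRG1 alone these shares were 34.0% and 7.40%, and with SMARCC2 alone 65.9% and 2.53%. Since the MR49F lists are longer, counts were also scaled to list length, which gave 8.37% higher in MR49F and 7.19% higher in LNCaP with both antibodies. After this scaling TBL1XR1 still passed with both antibodies and GPS2 did not. The median log2 ratio of MR49F to LNCaP over the 5 genes was 0.19 for BRG1 and 0.32 for SMARCC2, against 0.29 and 0.81 over all genes with a peak.

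**Figure D1:**
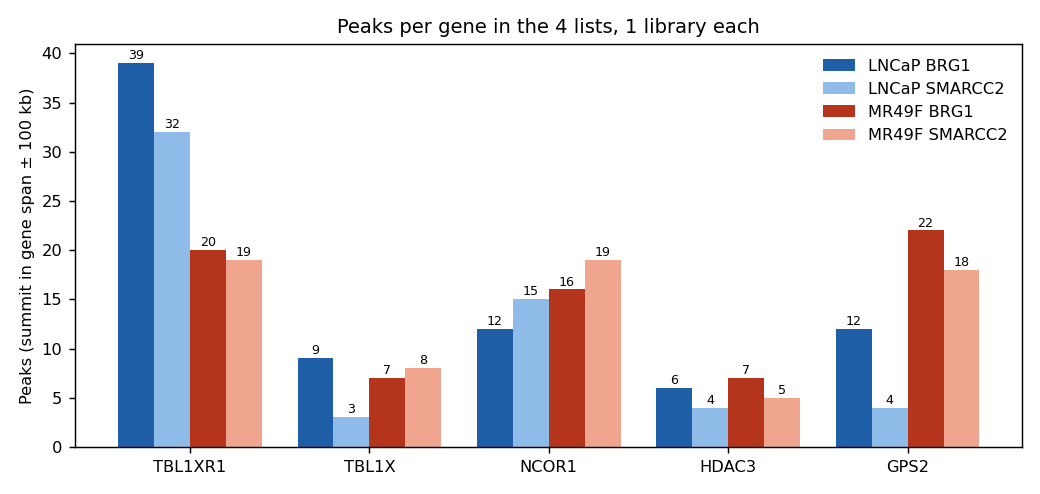
Number of peaks (y axis) whose summit lay in the gene span extended by 100 kb, for each gene (x axis) and each of the 4 lists, 1 library per bar. TBL1XR1 had 39 and 32 peaks in LNCaP against 20 and 19 in MR49F, and GPS2 had 12 and 4 against 22 and 18.

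**Figure D2:**
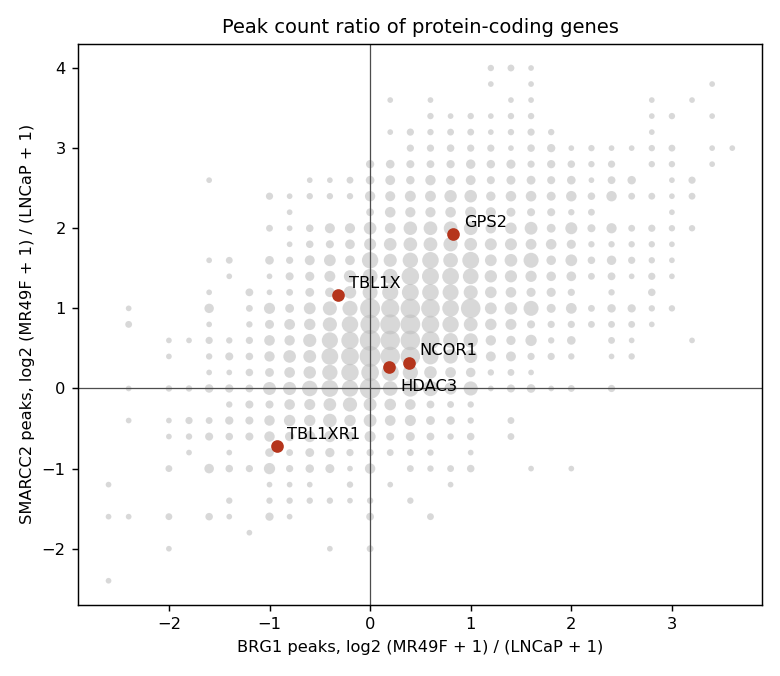
Log2 ratio of MR49F to LNCaP peak counts plus 1, for BRG1 (x axis) and SMARCC2 (y axis). Grey dots group protein-coding genes with a peak of each antibody, with ratios rounded to steps of 0.2 and dots larger where more genes fall together, and red dots are the 5 genes. TBL1XR1 (−0.93, −0.72) lies low on both axes and GPS2 (0.82, 1.93) high on both.

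NCOR1, on chromosome 17 from 16029157 to 16215534 (minus strand), had the largest share of regions in all 4 lists among the 5 genes. LNCaP had 12 BRG1 and 15 SMARCC2 peaks and MR49F 16 and 19, a difference under 1.5 times with each antibody. The log2 ratios were 0.39 and 0.32, above the median of all genes with a peak for BRG1 and below it for SMARCC2. Scaled to list length they were 0.09 and −0.57, so the SMARCC2 direction turned. Overlapping peaks of the lists (1 bp or more) were merged into regions. Of 19 regions, 9 (47.4%, against 22.7% of all regions) were in all lists, 3 were MR49F-only by both antibodies (15.8%, against 18.3%) and 0 LNCaP-only by both (against 3.67%). The strongest shared region, chr17:16108105-16109796, lay 107 kb inside the gene. Its −log10 q-values were 48.7 (BRG1) and 114 (SMARCC2) in LNCaP and 49.0 and 135 in MR49F.

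Within the NCOR1 gene, 2 regions had strong MR49F peaks and no LNCaP BRG1 peak. At chr17:16140317-16142759 the −log10 q-value was 56.8 for MR49F BRG1 and 161 for MR49F SMARCC2, the strongest peaks of both MR49F lists in this window, and 7.33 for LNCaP SMARCC2. At chr17:16129662-16132412 it was 32.4 and 155, with 16.0 for LNCaP SMARCC2. Within its own list the first region ranked 1121 of 44308 MR49F BRG1 peaks and 369 of 47615 MR49F SMARCC2 peaks. Of the NCOR1 peaks, 1 of 12 and 1 of 15 were in the top 10% of their LNCaP lists (BRG1 and SMARCC2), and 5 of 16 and 6 of 19 in MR49F. Local background ratios around NCOR1 were 1.02 and 1.00. The MR49F-only regions of both antibodies were chr17:15965551-15967328 downstream (nearest gene end ADORA2B), chr17:16040610-16041383 in the gene (nearest end TTC19) and chr17:16199045-16200623 in the gene, with MR49F SMARCC2 values of 30.2, 12.1 and 7.7.

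**Figure D3:**
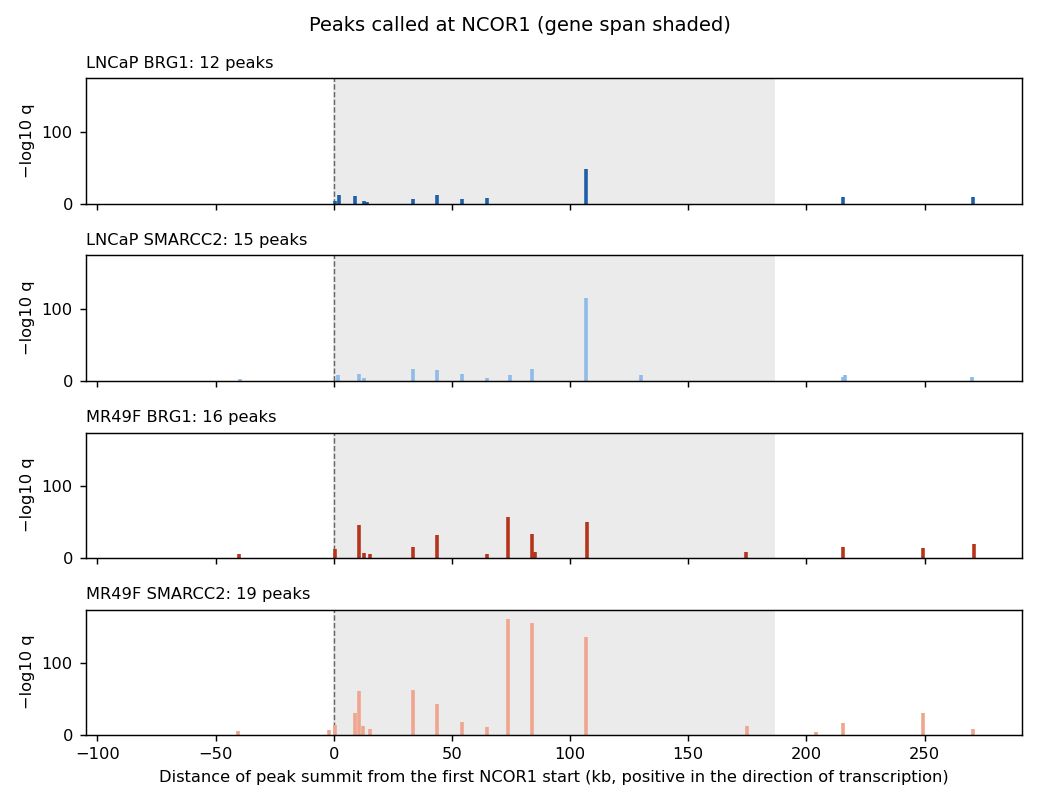
Peaks at NCOR1 in the 4 lists, drawn by distance of the summit from the first start in kb (x axis) and −log10 q-value (y axis), with the gene span in grey. The peak near 107 kb was present in every list. Near 74 kb the value was 56.8 for MR49F BRG1, 161 for MR49F SMARCC2 and 7.33 for LNCaP SMARCC2, and LNCaP BRG1 had no peak.

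HDAC3, on chromosome 5 from 141620881 to 141636849 (minus strand), had 7 or fewer peaks in each list, at a density above the median gene. The densities were 2.78 and 1.85 peaks per 100 kb (BRG1, SMARCC2) in LNCaP and 3.24 and 2.32 in MR49F. The median gene had 1.82 and 1.01 in LNCaP and 2.32 and 2.26 in MR49F. BRG1 gave 6 peaks in LNCaP and 7 in MR49F, SMARCC2 gave 4 and 5, and none had its summit inside the gene. The log2 ratios of 0.19 and 0.26 became −0.10 and −0.63 when scaled to list length, so the direction turned with both antibodies. The start region that HDAC3 shares with RELL2, chr5:141636051-141638703, was the 1 region of 11 called in all lists. It had −log10 q-values of 8.43 and 17.7 in LNCaP (BRG1 and SMARCC2) and 12.6 and 14.2 in MR49F. LNCaP BRG1 was strongest at chr5:141702231-141703129, 65.5 kb upstream of HDAC3 with ARAP3 as the nearest gene, with 22.7, where MR49F BRG1 had 3.29 and MR49F SMARCC2 had no peak. MR49F SMARCC2 was strongest at chr5:141615847-141616680 in the direction of DIAPH1, its nearest gene end, with 15.9, in one of the 2 MR49F-only regions of both antibodies. LNCaP-only regions of both antibodies numbered 0 at HDAC3, and local background ratios were 1.02 and 1.00.

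TBL1X, on chromosome X from 9463295 to 9719740 (plus strand), encodes a WD40 exchange factor and had fewer peaks than its paralog TBL1XR1. LNCaP had 9 BRG1 and 3 SMARCC2 peaks and MR49F 7 and 8, so the line with more peaks differed between antibodies. Log2 ratios were −0.32 and 1.17, and scaled to list length −0.61 and 0.28. The densities were 1.97 and 0.657 peaks per 100 kb in LNCaP and 1.53 and 1.75 in MR49F, where the median gene had 1.82 and 1.01 in LNCaP and 2.32 and 2.26 in MR49F. Its 11 regions included 2 in all lists, 2 MR49F-only by both antibodies and 0 LNCaP-only by both. The MR49F-only pair lay 14.2 and 214.4 kb inside the gene, at chrX:9477130-9477786 and chrX:9676896-9678123, with SMARCC2 −log10 q-values of 8.41 and 14. A shared region downstream with SHROOM2 as its nearest gene end, chrX:9785563-9790146, was the strongest of the window in LNCaP BRG1 (15.1) and in MR49F SMARCC2 (41.2). Around TBL1X the MR49F to LNCaP background ratio was 1.30 with BRG1 and 1.23 with SMARCC2, and its part in the counts was not tested. GPR143 and SHROOM2 also reach into this window.

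TBL1XR1, on chromosome 3 from 177019344 to 177201800 (minus strand), was the one of the 5 genes with more peaks in LNCaP by both antibodies. LNCaP held 39 BRG1 and 32 SMARCC2 peaks, and MR49F held 20 and 19. The ratio of MR49F to LNCaP peaks was 0.513 for BRG1 and 0.594 for SMARCC2, or −0.93 and −0.72 as log2 of the counts plus 1. The MR49F share of peaks was 33.9% (Wilson 95% interval 23.1 to 46.6, counting error only) with BRG1 and 37.3% (25.3 to 51) with SMARCC2. Scaled to list length the log2 values were −1.22 and −1.61. With peaks of a −log10 q-value of 5 or more, LNCaP SMARCC2 had 19 and MR49F SMARCC2 15, a log2 ratio of −0.32 that no longer reached 1.5 times, and BRG1 had 28 and 14.

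Per length, TBL1XR1 was among the densest loci of LNCaP. Its window of 382 kb, which holds no other protein-coding gene, had 10.2 BRG1 and 8.37 SMARCC2 peaks per 100 kb in LNCaP, where the median gene had 1.82 and 1.01. In LNCaP, 22 genes had a BRG1 density as high or higher, TBL1XR1 included, and 6 had a SMARCC2 density as high or higher. In MR49F the densities were 5.23 and 4.97 per 100 kb, which 2258 and 1705 genes reached. LNCaP BRG1 peaks covered 65.1 kb or 17% of the window, and LNCaP SMARCC2 peaks 34.8 kb or 9.1%. In MR49F the covered share was 4.46% for BRG1 and 4.53% for SMARCC2. The median width of the LNCaP BRG1 peaks at TBL1XR1 was 1427 bp, against 743 bp for that whole list, while MR49F BRG1 peaks at the gene had 738 bp against 820 bp.

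Most of these peaks lay inside the gene. Of the 39 LNCaP BRG1 peaks 31 had their summit in the gene span, as did 28 of 32 LNCaP SMARCC2, 17 of 20 MR49F BRG1 and 14 of 19 MR49F SMARCC2 peaks. The strongest LNCaP SMARCC2 peak, at 112.7 kb inside the gene (chr3:177084389-177086243), had a −log10 q-value of 41.1 and a fold of 9.55. MR49F SMARCC2 was strongest in the same place, with 59.6 and a fold of 14.9. The strongest LNCaP BRG1 peak was that at the start, chr3:177193560-177199785, 6226 bp wide, with a fold of 9.03 and a summit 447 bp inside the first start. The strongest MR49F BRG1 peak lay upstream, 103 kb before the first start (chr3:177299677-177300821), with 33.8 and a fold of 10.8, and LNCaP BRG1 had 14.4 in that region. Peaks in the top 10% of their own list numbered 6 and 5 in LNCaP (BRG1 and SMARCC2) and 2 and 2 in MR49F.

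**Figure D4:**
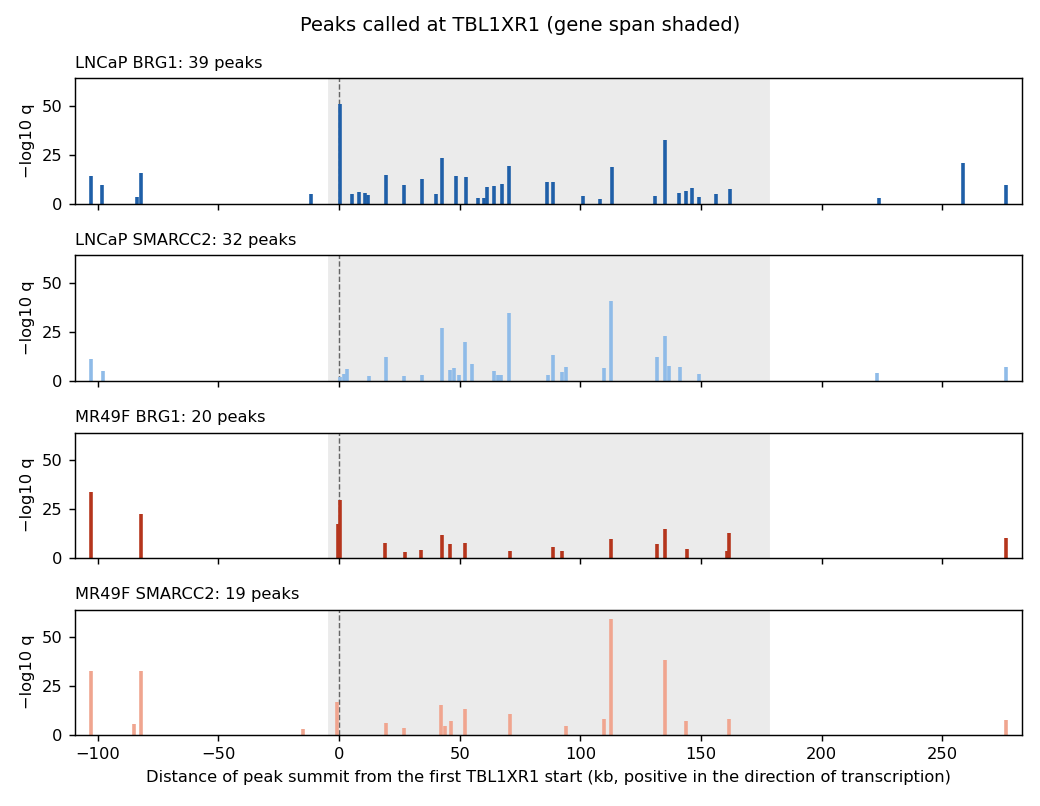
Peaks at TBL1XR1 in the 4 lists, with the distance of the summit from the first start in kb on the x axis and the −log10 q-value on the y axis. Grey marks the gene span and the dashed line the start. LNCaP peaks (39 and 32) filled the gene body more densely than MR49F peaks (20 and 19).

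Joined regions at TBL1XR1 numbered 46. In LNCaP alone, both antibodies called 8 of them (17.4%, Wilson 95% interval 9.09 to 30.7, counting error only), against 3.67% over all regions. The gene was chosen by peak counts of these lists, so the interval is no test against that share. A single antibody called 15 in LNCaP alone, of which 13 were BRG1. MR49F alone had 0 regions by both antibodies, against 18.3% over all regions, and 2 by a single antibody. All 4 lists shared 11 regions (23.9%, against 22.7% overall). Another 10 were called in both lines by 2 or 3 lists. This LNCaP excess depended on how peaks were matched. When summits within 200 bp were joined instead, 2 regions were LNCaP-only and 3 MR49F-only.

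The 8 LNCaP-only regions of both antibodies were weaker than the shared ones. Their BRG1 −log10 q-values ran from 2.9 to 11.4, with a median of 7.43 against 14.7 for the 11 regions in all lists and 6.77 for the whole LNCaP BRG1 list. For LNCaP SMARCC2 their median was 3.90, against 12.4 for the regions in all lists and 6.95 for the whole list. Of the 8, 6 lay in the gene, 1 upstream and 1 downstream. Ordered by the sum of both values, used only for the order, the first was chr3:177294815-177296084, 98.1 kb upstream, with 9.76 for BRG1 and 5.06 for SMARCC2. Next came chr3:177109938-177111754 with 11.4 and 3.03, chr3:177132058-177133811 with 9.19 and 4.99, chr3:177129285-177130847 with 9.92 and 3.12, and chr3:177056004-177056794 with 5.66 and 6.95. At a −log10 q-value of 5 or more in every list, 2 LNCaP-only regions of both antibodies were found. The single-antibody region with the highest value was chr3:176937901-176939515, downstream of the gene, with 21.1 for LNCaP BRG1.

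Local background moved with the TBL1XR1 counts. It was solved from the fold and p-value of each peak, taken as the median of the 10 Mb around the gene, and expressed relative to autosomes. LNCaP had 1.30 with BRG1 and 1.29 with SMARCC2, and MR49F had 1.03 and 1.07. The MR49F to LNCaP ratio was 0.789 and 0.829. Over 277 autosomal 10 Mb windows the central 95% of this ratio ran from 0.789 to 1.23 for BRG1 and from 0.845 to 1.27 for SMARCC2. DNA copy number is one determinant of local background, and its part in the peak counts was not tested.

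GPS2, on chromosome 17 from 7312661 to 7315360 (minus strand), had more peaks in MR49F with both antibodies, mostly at its neighbours. LNCaP had 12 BRG1 and 4 SMARCC2 peaks and MR49F 22 and 18. The log2 ratios were 0.82 and 1.93, and scaled to list length 0.53 and 1.04. With both antibodies this direction was that of 29.5% of genes. Scaled to list length, BRG1 no longer reached 1.5 times, so the call with both antibodies was lost. It was also lost in 3 other settings. Among the 10000 strongest peaks of each list, SMARCC2 gave 1 peak in each line. With lists cut to the shortest, BRG1 gave 10 and 11 peaks, and with spans extended by 10 kb it gave 2 and 2. The gene spans 2.7 kb and 19 other protein-coding genes reach into its window. With the gene span alone LNCaP had 0 and MR49F 1 peak with each antibody. That 1 region, chr17:7314779-7315828, lay at the GPS2 start and was called by BRG1 in both lines (4.67 and 5.5) and by SMARCC2 in MR49F (11.8).

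In the whole GPS2 window, 6 of 23 regions (26.1%, against 18.3% overall) were MR49F-only by both antibodies and 0 LNCaP-only. The Wilson 95% interval of 12.5 to 46.5 holds counting error only and is no test, since the gene was chosen by peak counts. Of the 6, 5 lay within 1 kb of a coding gene start, and the nearest start is named here with the nearest gene end where it differs. They were at PHF23 (chr17:7237600-7239610, nearest end GABARAP, with 47.0 for BRG1 and 19.7 for SMARCC2), KCTD11 (nearest end ACAP1, 24.3 and 9.34), DVL2 (7.75 and 11.2), NEURL4 (4.55 and 13.8) and TMEM256 (nearest end NLGN2, 7.41 and 10.7), and the sixth was nearest to CLDN7 (12.2 and 10.9). As background, KCTD11 encodes an adaptor of ubiquitin ligases and DVL2 a Wnt pathway protein. The strongest region of the window in every list was chr17:7254338-7255865, 2742 bp after the start of ELP5 (nearest end CTDNEP1), with BRG1 at 34.0 and 83.4 and SMARCC2 at 53.9 and 122 in LNCaP and MR49F. Background ratios were 0.938 with BRG1 and 1.10 with SMARCC2.

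**Figure D5:**
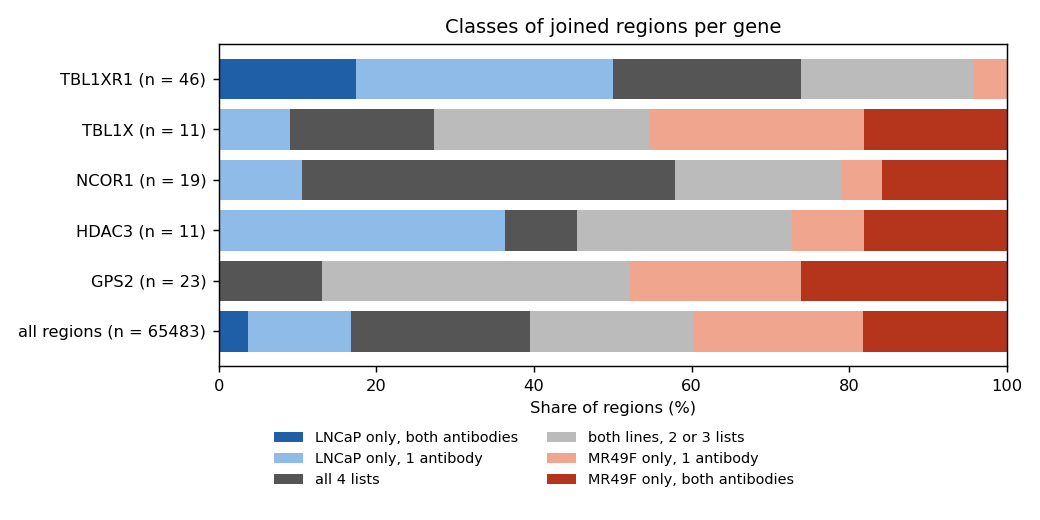
Share of joined regions (x axis, %) in 6 classes for each gene and for all regions. TBL1XR1 was the only one of the 5 genes with LNCaP-only regions of both antibodies (17.4%), and GPS2 had the highest share of MR49F-only regions of both (26.1%).

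Other genes of the pathway passed the fold mostly towards MR49F, as the longer MR49F lists did. Of 39 genes in 4 groups, 7 passed 1.5 times towards MR49F by both BRG1 and SMARCC2 and 1 towards LNCaP, against 29.5% and 1.20% of all genes. Among 14 corepressor partners 6 were MR49F-higher and 0 LNCaP-higher, with median log2 ratios of 0.32 and 1.16. HDAC5, a class IIa deacetylase gene, had 4 and 1 peaks (BRG1, SMARCC2) in LNCaP against 18 and 7 in MR49F, the order kept in the next sentences. HDAC9 of the same class had 4 and 6 against 12 and 18, and HDAC4 7 and 6 against 12 and 12. KDM1A, the histone demethylase LSD1, had 3 and 1 against 7 and 7, and CORO2A, an actin-binding component of NCOR complexes, had 12 and 12 against 19 and 20. HDAC1 and HDAC2 encode deacetylases of other corepressors, and their peaks are given as LNCaP and MR49F. Both passed the fold with SMARCC2 (6 and 13, 1 and 4) and not with BRG1 (11 and 15, 3 and 3). Of all genes with a peak, 65.9% passed towards MR49F with SMARCC2 and 34.0% with BRG1, so this is no particular trait of the pair.

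Among 17 receptors and repressors that recruit NCOR, 1 was MR49F-higher and 1 LNCaP-higher, with medians of 0.15 and 0.89. RUNX1T1, a corepressor gene known as ETO, had 4 and 4 peaks (BRG1, SMARCC2) in LNCaP and 2 and 1 in MR49F. The 6 coactivator genes, NCOA1 to MED1, gave 0 in each direction and medians of −0.14 and 0.32. The E3 ligase genes SIAH1 and SIAH2 also gave 0.

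Among the 5 genes most like TBL1XR1 over the 4 lists, by Euclidean distance of log2 peak counts plus 1, were BMPR1B, ZFHX3, LOC128462377 and GRHL2, at distances from 0.616 to 0.779. BMPR1B, a bone morphogenetic protein receptor gene, had 46 and 14 BRG1 peaks (LNCaP, MR49F) and 26 and 18 SMARCC2 peaks, with local background ratios of 0.923 and 1.03. ZFHX3, a zinc finger homeobox gene, had 29 and 18, and 21 and 16, with background ratios of 0.76 and 0.758. LOC128462377 had 33 and 24, and 20 and 16, with ratios of 0.622 and 0.689. GRHL2, a grainyhead-like transcription factor gene, had 28 and 23, and 25 and 27, so its SMARCC2 peaks were more in MR49F, with ratios of 1.12 and 0.983. These distances come from 4 libraries and from windows of unequal length. In SMARCC2, 3 genes of 20037 had a LNCaP excess as large as the 13 peaks of TBL1XR1, the gene itself included, and in BRG1 6 genes had one as large as its 19 peaks.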

How the data were processed

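BRG1 and SMARCC2 were profiled by ChIP-seq in LNCaP and MR49F, 1 library per line and antibody, with 4 µg of antibody each. The 2 inputs were not analysed here. Per the submitters' processing notes, BWA 0.7.10, SAMtools, MACS2 2.1.0 and build hg38 were used. The control used and the read filters are not stated in the sources. Each deposited peak carries a fold enrichment (a ratio over local background), a −log10 p-value, a −log10 q-value and a display score, as the authors' peak caller wrote them, and the lowest deposited −log10 q-value of about 2 in each list corresponds to a q-value of 0.01. The deposited score was not used.

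Peaks were assigned by summit to RefSeq gene spans (GRCh38.p14, the same build) extended by 100 kb. Peaks of different lists sharing at least 1 bp were joined into regions, with overlaps computed in NumPy 2.4.6 and pandas 2.3.3 under Python 3.11.15, and Wilson intervals in SciPy 1.17.1. Ratios of peak counts used a pseudocount of 1, and a gene counted as higher past 1.5 times. Local background was solved from fold and p-value as a Poisson tail. The background solution, the joining of regions and the count of peaks in a window were tested on simulated data. For summits joined within 200 bp the simulated result was not checked against the known classes. The other steps were not tested in this way. Promoter letters came from the RefSeq table. Coordinates are 1-based. The genes, the pathway and marker lists and the tests were chosen with earlier results of these data known. The genes named beside the 5 are those of the pathway lists past 1.5 times with both antibodies, the 5 closest to TBL1XR1, and, for each region described, the coding gene with the nearest end, or the nearest start where the text says so, a choice made after the values were seen. Some genes that this rule names are not reported here. HDAC1 and HDAC2 were added after their values were seen, as were KLK3, DCN and PTPRC from the marker lists. Where a list has no peak, its threshold was not passed, which is no evidence of absence.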

Additional observations from a re-analysis of the deposited data

Results flagged for a closer look

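At TBL1X the difference between antibodies had opposite directions in the 2 lines. SMARCC2 minus BRG1 peaks was −6 in LNCaP (3 against 9) and 1 in MR49F (8 against 7). The whole lists went the same way, with 25706 SMARCC2 against 36174 BRG1 peaks in LNCaP and 47615 against 44308 in MR49F. This is therefore no particular trait of TBL1X. The difference between lines was not tested, since each count comes from 1 library.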

How the results depend on the processing

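No paired analysis was possible because each line and antibody has 1 library. Of 144 recomputed values, 106 stayed the same, 36 moved and 2 reversed. The same meant within counting error for peak ratios and regions, and within 1.5 times for counts of genes. For background ratios it meant a log2 change of at most 0.0896, the standard deviation between antibodies over the autosomal 10 Mb windows. With few peaks the counting error is wide, as for the MR49F share of HDAC3 SMARCC2 peaks (26.7 to 81.1%). The change of NCOR1 SMARCC2 from 0.32 to −0.57 thus counted as the same, and the label is no measure of stability. Reversal was counted for peak ratios only where the reported value passed 1.5 times. Below that, 7 log2 peak ratios changed sign. Those of NCOR1 SMARCC2 were −0.09 with lists cut to the shortest and −0.57 scaled to list length. Those of HDAC3 were −0.32 (SMARCC2) with lists cut to the shortest, −0.10 and −0.63 (BRG1, SMARCC2) scaled, and the pair given below for the strongest peaks. The LNCaP excess at TBL1XR1 reversed to 1 more MR49F-only region with summits joined within 200 bp, and kept its direction in the other settings. HDAC3 reversed to −1 with the 10000 strongest peaks. In that setting the log2 ratio was −1.91 for TBL1XR1 BRG1, 1.58 for TBL1X SMARCC2, −1 and −1.58 for HDAC3 BRG1 and SMARCC2, and 0 for GPS2 SMARCC2, and GPS2 had 0 single-line regions of both antibodies, as it also had with spans extended by 10 kb. TBL1XR1 SMARCC2 was −1.87 with lists cut to the length of the shortest, and −1.61 scaled to list length (an alternative chosen after seeing the data). HDAC3 has no peak in its span and gave no value with the span alone or nearest-gene assignment. GPS2 gave 1 with both antibodies with the span alone or nearest-gene assignment, and 0 for BRG1 and 1.58 for SMARCC2 with 10 kb. GPS2 BRG1 was 0.13 with lists cut to the shortest and 0.53 scaled.

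Genes higher in MR49F numbered 6374 for BRG1 and 5463 for both antibodies at 1.5 times, and 3317 and 2598 at 2 times. Those higher in LNCaP numbered 1386, 475 and 223 (BRG1, SMARCC2, both), and 561, 215 and 90 at 2 times. Scaled to list length, MR49F-higher genes were 3465, 3513 and 1553 and LNCaP-higher genes 2638, 4014 and 1334. With at least 4 peaks, LNCaP-higher genes were 213 for SMARCC2 and 79 for both. Background ratios in 2 Mb moved to 0.843 (TBL1XR1 BRG1), 1.04 and 1.12 (TBL1X), 1.10 (NCOR1 SMARCC2) and 1.19 and 1.18 (HDAC3). Over whole chromosomes they were 0.933 and 0.955 for chromosome 3 and 1.02 for chromosome 17 SMARCC2 (GPS2). Each cause was not tested. Depth is unknown and limits weak peaks first.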
